A study of Drosophila melanogaster with 20 samples.

Results

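The antimicrobial peptide and PGRP genes described here are the 33 genes, of 11982 with a probe set of their own, whose symbol begins as PGRP, Att, Cec, Dpt, Drs, Bom, IM or Tot or is Def, Mtk or Dro. Each of the 33 is read by a single probe set on Affymetrix Drosophila 2.0 arrays, a whole-transcriptome microarray. A further 3 probe sets match the rule but name a second gene as well (IM18 with CG10332, PGRP-SC1a with PGRP-SC1b, and PGRP-LD with Pmi) and were kept out of the tests. Values are log2 RMA values, a background-corrected and normalized hybridization signal on which a difference of 1 is a doubling. They compare a gene across arrays and cannot be compared between genes.

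Flies defend themselves through their hemolymph. Peptidoglycan recognition proteins (PGRPs) sense bacterial cell walls, the Imd and Toll pathways then activate NF-kB factors, and the fat body secretes antimicrobial peptides such as the diptericins, metchnikowin, drosomycin and the bomanins. Some PGRPs are receptors, and others are amidases that cut peptidoglycan and damp the response. The Turandots are secreted peptides that rise under stress, including heat and infection. Eye-antennal discs are the larval epithelia that form the adult eye and antenna, and they are not a known main source of these peptides.

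RNA was measured in 20 samples of eye-antennal discs of larvae in the third instar, with no infection named, and all cultures were reared at 18 °C with 24 h at 28 °C early in that instar. Gain of function of Atonal (Ato GOF), a proneural bHLH factor of the retina, came from 2 crosses, Gal4/7 x UASato and atoGal4 x UASato (3 arrays each). In each, a Gal4 driver stock switches on a UAS transgene. Ato LOF (3 arrays) was the ato-/- genotype, from an ato1/hshid stock that was also heat-shocked on consecutive days from the first instar, a treatment that no other line received. Sens GOF (3 arrays) was atoGal4 x UASsens, which drives the zinc-finger factor Senseless. The 8 control arrays are 2 each of the stocks Gal4/7, atoGal4, UASato and CantonS, a wild type strain. A UASsens stock without a driver and an unmutated stock given the same heat shocks are not among them.

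The ato transcript stood at 12.22 to 12.61 in Gal4/7 x UASato and 11.30 to 11.62 in atoGal4 x UASato, against 9.27 to 10.01 in the controls. In Ato LOF it stood at 9.99 to 10.35, so the probe set does not separate the mutant arrays; ato1 is a mutant allele and not a knockdown of the transcript. The retinal regulator gl was lower in Ato LOF by 3.33 on the log2 scale (adjusted p = 4.5e-06, limma). The sens transcript stood at 11.68 to 12.18 in Sens GOF, against 7.98 to 8.70 in the controls. Replicates 1 and 2 of Sens GOF were nearly the same array: the SD of their difference over all probe sets was 0.149, against 0.325 to 0.759 for the other 15 pairs of arrays of a line. They are therefore given one by one, and results on Sens GOF are also given with their mean counted as 1 array. Replicate 2 of the Gal4/7 stock had the lowest median correlation with the other arrays (0.96, against 0.965 to 0.984). On every array the summed level (log2 of the summed linear values) of 9 eye-antennal disc markers lay between 13.25 and 14.14. Markers of other tissues varied far more between arrays. The summed salivary gland level ran from 8.77 to 16.58 in the controls and from 8.21 to 16.64 in Ato GOF. The steady disc level therefore does not show that the samples were free of other tissue.

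The genes differed in how far they moved across the arrays. Over all 20 arrays 12 of the 33 moved by less than 1 log2 unit, and 9 moved by more than 3: PGRP-SB2, IM33, Drs, Mtk, Drsl5, DptB, PGRP-LE, PGRP-SC2 and BomT2. The mean signal of 19 of the 33 lay below 5.42, the median of all values, among them all 8 bomanins and all 5 Turandots, and 13 were below it on every array. That is a property of the probe sets, since no detection calls were used, and it does not rank the genes by expression.

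**Figure D1:**
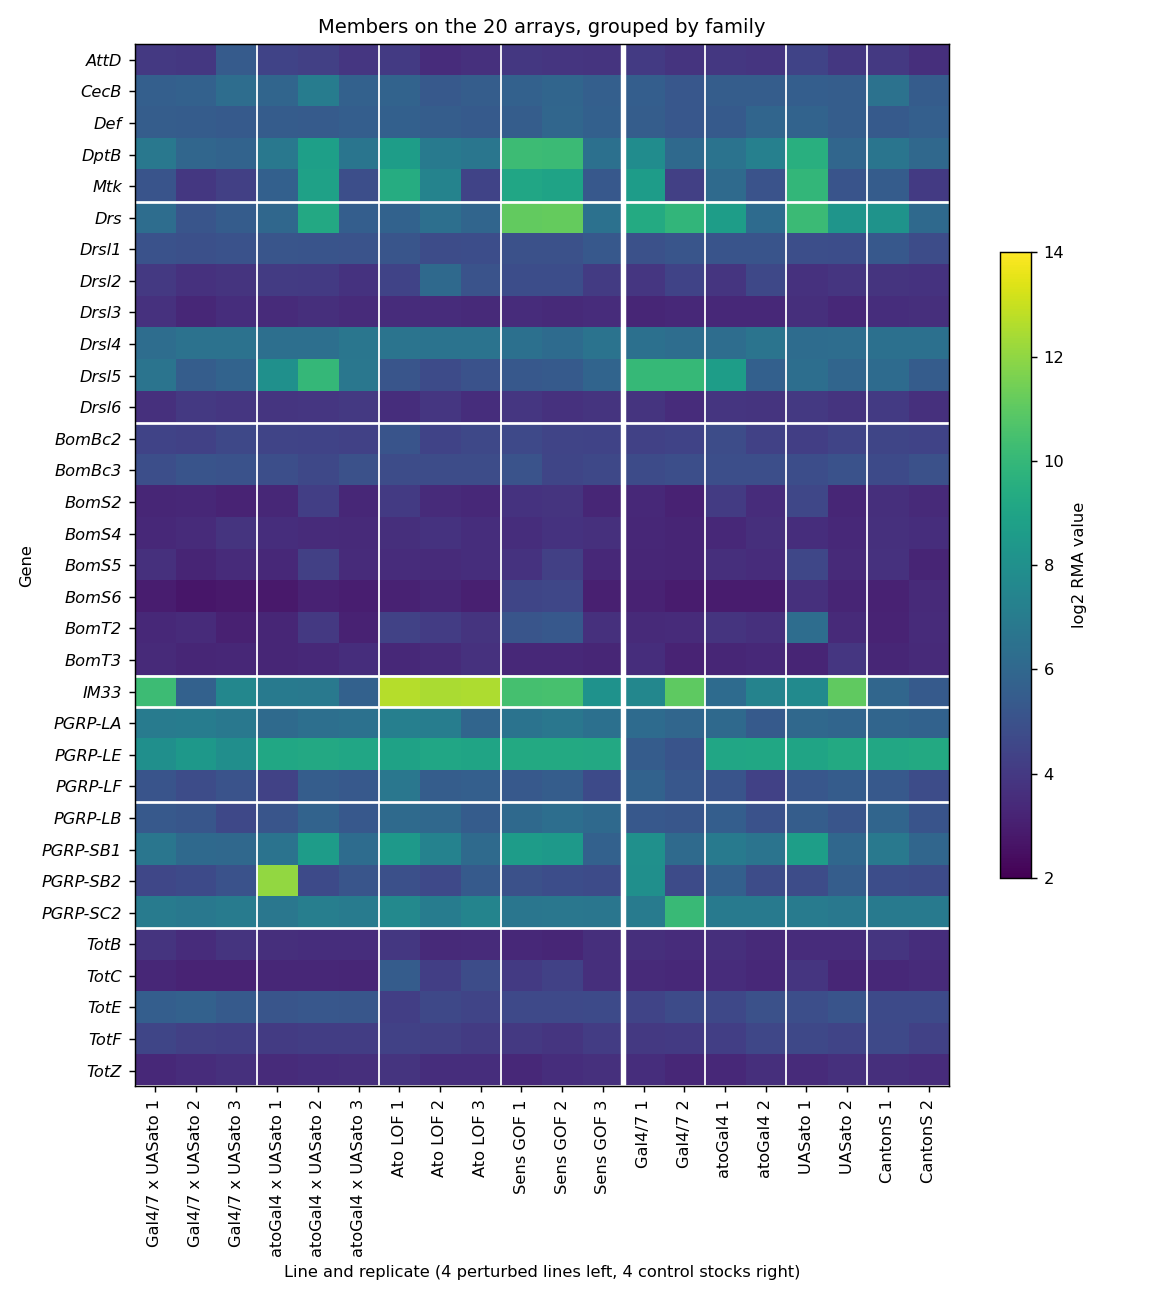
Log2 RMA values of the 33 genes (rows, grouped by family) on the 20 arrays (columns, perturbed lines left of the thick line and control stocks right of it). IM33 is brightest on the 3 Ato LOF arrays, PGRP-LE is darker in the Gal4/7 stock (5.51 and 5.11) than on any other array, and PGRP-SB2 is brightest on atoGal4 x UASato replicate 1 (12.07).

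Among receptors, PGRP-LE separated the lines most cleanly. PGRP-LE is an intracellular receptor for peptidoglycan fragments that feeds the Imd pathway. It read 5.51 and 5.11 in the Gal4/7 stock. In the other stocks it read 9.08 and 9.17 in atoGal4, 9.02 and 9.29 in UASato, and 9.20 and 9.29 in CantonS. The Gal4/7 arrays thus stand far from every other array, and the other 6 control arrays lie between 9.02 and 9.29.

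The Gal4/7 stock minus the mean of the other 3 stocks was -3.86 ± 0.12 for PGRP-LE (SE; adjusted p = 5.3e-11, limma). The F test among the 4 control stocks gave an adjusted p of 4.0e-10, and 0.0012 when only the 8 control arrays were fitted. PGRP-LE and Drsl5 were the 2 members that passed this F test, or 6.06% of the 33, against a background of 3.73% of all genes. In the Gal4/7 contrast Drsl5 was the 1 member called higher and PGRP-LE the 1 called lower, against 0.96% and 1.47% of all genes. By p, PGRP-LE was the 4th of all 11982 genes in the Gal4/7 contrast.

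The cross made with this driver lay in between. PGRP-LE read 7.99, 8.38 and 7.92 in Gal4/7 x UASato, and 9.17, 9.24 and 9.09 in atoGal4 x UASato. The log2 difference of the Gal4/7 cross minus the atoGal4 cross was -1.07 ± 0.12 (adjusted p = 0.00022, limma), and no other member differed between the crosses (1 of 33, against 1.69% of all genes). Its mean of 8.10 was close to 8.26, the log2 of the mean of its parent stocks on the linear scale, while the parents themselves averaged 5.31 (Gal4/7) and 9.15 (UASato). In Ato LOF PGRP-LE read 8.92, 9.09 and 8.99, and in Sens GOF 9.27, 9.29 and 9.23. These 2 lines do not carry Gal4/7 by their labels, and their arrays lie with those of the other stocks.

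No measured neighbour of the gene passed the test of the same contrast. Of the 8 protein-coding genes on either side of PGRP-LE in the RefSeq annotation (Release 6 plus ISO1 MT), 13 were measured, and none differed between Gal4/7 and the other stocks (lowest adjusted p = 0.25). Their differences ran from -0.37 to 0.17. For mRpS30, 5 genes away, both Gal4/7 arrays (9.47 and 9.54) lay below every other array (9.65 to 10.17), a difference of -0.24 (adjusted p = 0.35, limma). CG15602, beside it, read 8.65 and 8.59 in Gal4/7, against 8.27 to 8.72 elsewhere, and Chc, the clathrin heavy chain, read 12.05 and 12.19, against 11.52 to 12.34. A transcript that is low and a transcript that the probes of this set read poorly in this stock cannot be told apart with a single probe set.

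Since the Gal4/7 stock is in the 8 controls, it also widens the spread against which PGRP-LE is tested. PGRP-LE was not called in Gal4/7 x UASato against the 8 controls (log2 difference -0.11 ± 0.97, adjusted p = 0.99, limma). Against the 6 controls of the other stocks it was lower by 1.08 ± 0.11 (adjusted p = 0.0012), an alternative added after the values were seen.

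Drsl5, a drosomycin-like gene, was the second member that differed among the stocks. It read 10.04 and 10.03 in Gal4/7. It read 8.70 and 5.68 in atoGal4, 6.32 and 5.93 in UASato, and 6.22 and 5.51 in CantonS. Both Gal4/7 arrays are therefore above every other control array, and atoGal4 replicate 1 sits apart from its own replicate. The Gal4/7 stock exceeded the other 3 by 3.64 ± 0.72 (SE; adjusted p = 0.015, limma), and the F test among stocks gave an adjusted p of 0.038, which was 0.29 when only the 8 control arrays were fitted. With single control arrays left out the F test passed in 2 of 8 fits, those without an atoGal4 array (adjusted p up to 0.19).

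Unlike PGRP-LE, Drsl5 was not high in the cross with that driver. It read 6.62, 5.53 and 5.83 in Gal4/7 x UASato, where the linear mean of the parents would be 9.13. In atoGal4 x UASato it read 8.05, 9.98 and 6.76. Ato LOF had the lowest values of all, at 5.18, 4.76 and 5.02, all below the lowest control array, and Sens GOF read 5.31, 5.42 and 5.87. The Ato LOF difference did not pass (-2.31 ± 1.05, adjusted p = 0.18, limma). The F test over the 8 lines did (adjusted p = 0.0043), and it kept passing with each array left out (highest adjusted p 0.019).

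**Figure D2:**
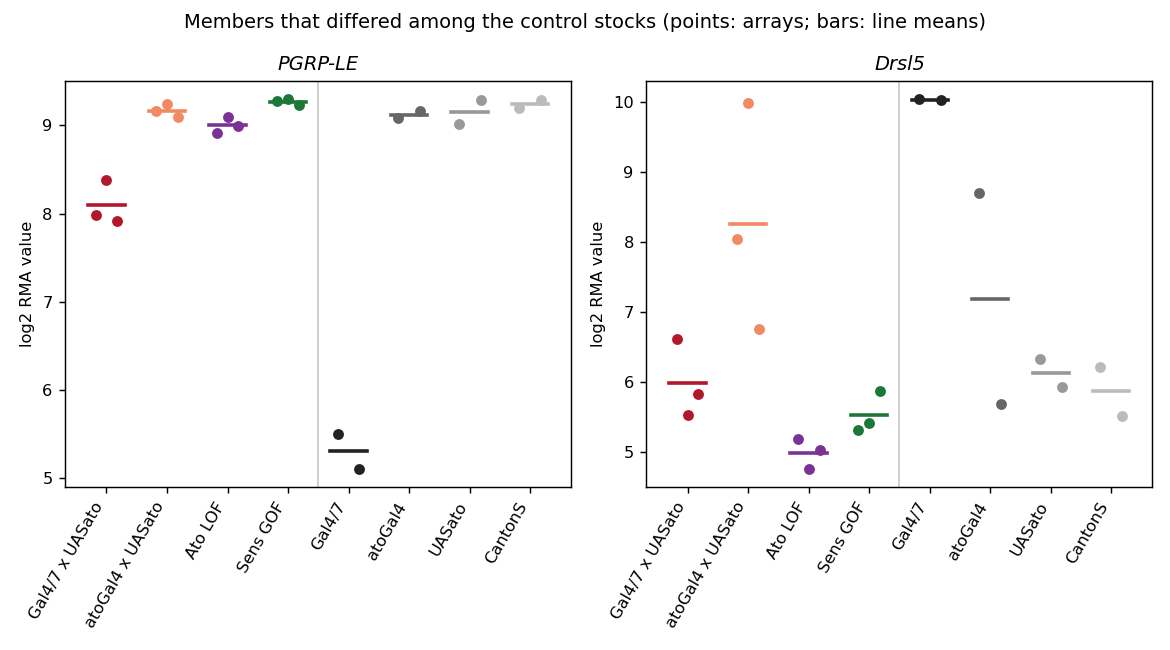
Log2 RMA values of PGRP-LE and Drsl5 in the 8 lines, with points for arrays, bars for line means, perturbed lines left and control stocks right of the grey line. PGRP-LE is low only in Gal4/7 (5.31 on average) and intermediate in Gal4/7 x UASato (8.10), while Drsl5 is high in Gal4/7 (10.03) and low in Gal4/7 x UASato (5.99).

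PGRP-LA, a transmembrane member of the family, was higher than the 8 controls in 4 of the 5 comparisons. It read 7.00, 7.05 and 6.80 in Gal4/7 x UASato and 6.15, 6.39 and 6.47 in atoGal4 x UASato, against 5.39, 5.92 and 6.19 as the lowest, median and highest of the controls. In Ato LOF it read 7.17, 7.11 and 5.91, and in Sens GOF 6.57, 6.75 and 6.41. The Gal4/7 cross and Sens GOF did not overlap the controls, while Ato LOF replicate 3 and atoGal4 x UASato replicate 1 lay among them.

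In Gal4/7 x UASato PGRP-LA was 2.06-fold higher (log2 difference 1.04 ± 0.15, adjusted p = 0.0028, limma), a call that stood under every alternative and with each array left out. In the 6 Ato GOF arrays together the difference was 0.74 ± 0.15 (adjusted p = 0.035). It was 0.67 ± 0.15 for Sens GOF (adjusted p = 0.036) and 0.82 ± 0.25 for Ato LOF (adjusted p = 0.0496). With single arrays left out, the call held in 5 of 14 fits for Ato GOF, 5 of 11 for Sens GOF and 1 of 11 for Ato LOF (adjusted p up to 0.10, 0.18 and 0.23). It was lost without the Gal4/7 stock in Ato GOF and Ato LOF (adjusted p = 0.064 and 0.067), and with Sens GOF replicates 1 and 2 counted as 1 array (adjusted p = 0.16). In atoGal4 x UASato the difference was 0.43 ± 0.15 (adjusted p = 0.49), and the crosses themselves were not shown to differ (0.61 ± 0.27, adjusted p = 0.47). All these comparisons use the same 8 control arrays.

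PGRP-LF, an inhibitor of the Imd pathway encoded near PGRP-LA, passed in none of them. Its largest difference was in Ato LOF, where it read 6.75, 5.53 and 5.63, against 4.33, 5.26 and 5.76 as the lowest, median and highest control (adjusted p = 0.11, limma).

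The amidases limit the response by cutting peptidoglycan. PGRP-LB, the main secreted and cytosolic amidase of the Imd branch, read 6.11, 6.33 and 6.08 in Sens GOF, against 5.02, 5.26 and 5.89 as the lowest, median and highest control. Every Sens GOF array was above every control, by a margin smaller than the controls' own range. The difference was 0.81 ± 0.17 (SE; 1.76-fold, adjusted p = 0.025, limma), and it was not called when replicates 1 and 2 of Sens GOF were counted as 1 array (adjusted p = 0.12), nor without any single Sens GOF array (adjusted p up to 0.14). PGRP-LB read 6.16, 6.06 and 5.51 in Ato LOF (0.55 ± 0.19, adjusted p = 0.081). Its probe set carries the suffix that Affymetrix gives to sets shared by several transcripts.

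Counted over the 33 genes, no comparison called a member lower. In Ato GOF 2 rose (PGRP-LA and TotE), against 0.943% of all genes called higher and 0.284% lower. In Gal4/7 x UASato the same 2 rose, against 1.96% of all genes higher and 2.49% in either direction. In atoGal4 x UASato none passed limma's test, against 0.0835% higher and 0.00835% lower, and 2 of the 33 had an unadjusted p under 0.05. In Ato LOF 4 rose (Drsl2, IM33, PGRP-LA and TotC), which is 12.1% of the 33, against 16.4% of all genes called, 6.34% higher and 10.1% lower. In Sens GOF 2 rose (PGRP-LA and PGRP-LB), against 1.7% higher and 2.21% lower.

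The members that cleared every control array were few as well. All arrays lay above the highest control for TotE in Ato GOF (0.885% of all genes), for PGRP-LA and TotE in Gal4/7 x UASato (4.06%), for TotE in atoGal4 x UASato (2.16%), for IM33 and TotC in Ato LOF (6.07%), and for PGRP-LA and PGRP-LB in Sens GOF (4.2%). All lay below the lowest control for Drsl5 in Ato LOF (9.26%) and for PGRP-SC2 in Sens GOF (4.67%). The median log2 difference of the 33 was -0.03 in Ato GOF, -0.09 in Gal4/7 x UASato and 0.03 in atoGal4 x UASato; Sens GOF had 0.07 and Ato LOF 0.05. Over all genes it was 0.01 in the 3 Ato GOF comparisons, -0.01 for Sens GOF and -0.02 for Ato LOF.

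**Figure D3:**
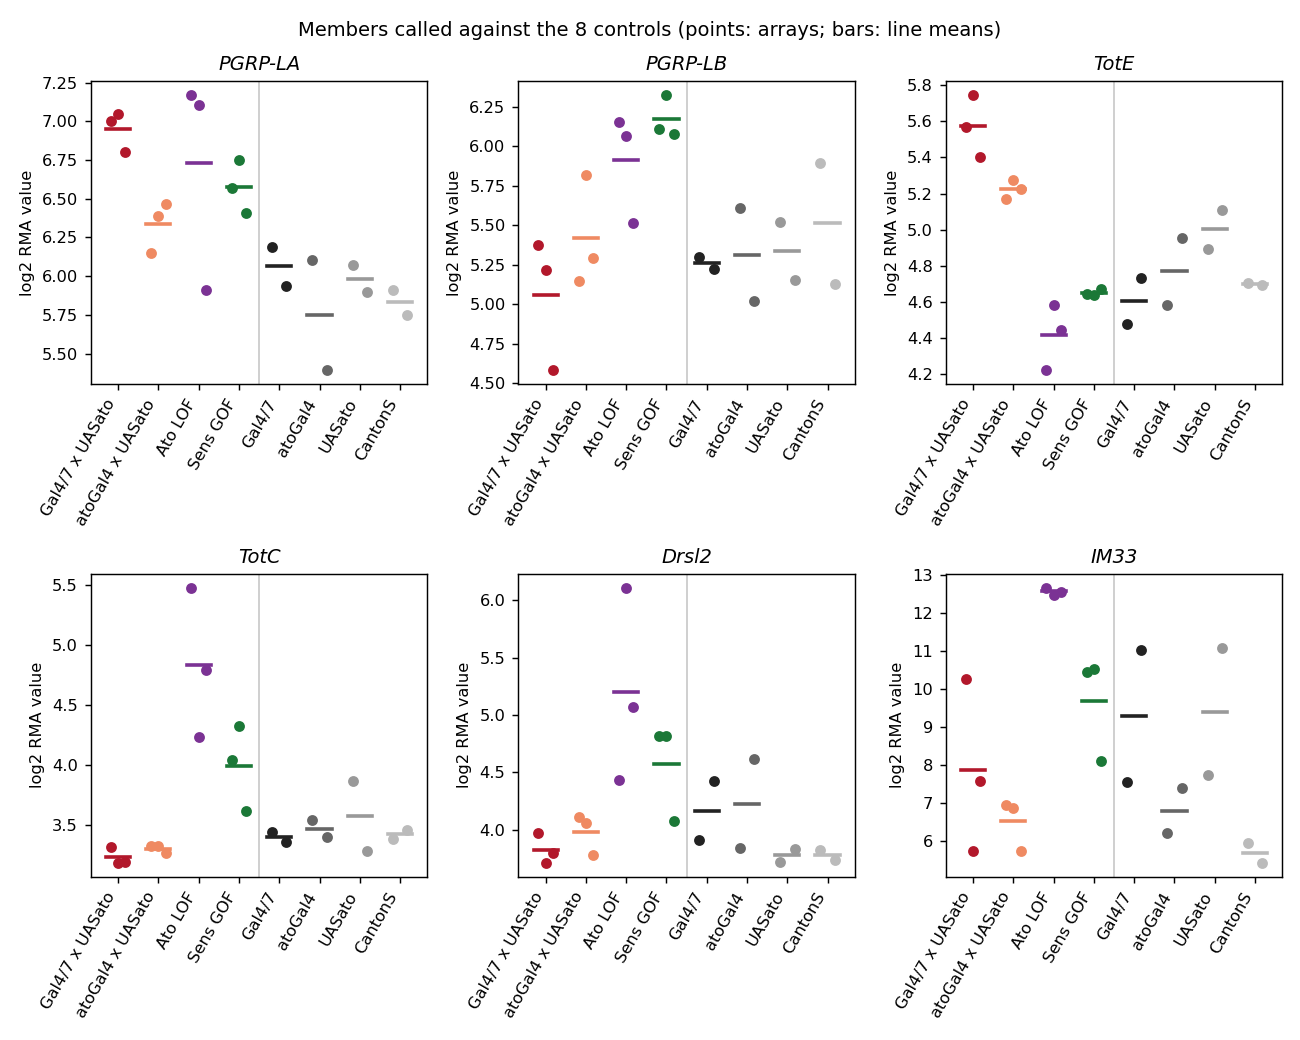
Log2 RMA values of the 6 genes called in at least 1 comparison with the 8 controls, by line, with points for arrays and bars for line means (perturbed lines left and control stocks right of the grey line; the axes do not start at 0 and differ between panels). IM33 and TotC are highest in Ato LOF, TotE is highest in the Ato GOF crosses, and Drsl2 is highest on the second Ato LOF array.

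The Turandots moved in 2 of the perturbations, TotE in Ato GOF and TotC in Ato LOF. TotE read 5.57, 5.75 and 5.40 in Gal4/7 x UASato and 5.17, 5.28 and 5.23 in atoGal4 x UASato, against 4.48, 4.72 and 5.11 as the lowest, median and highest control. All 6 Ato GOF arrays were above every control, and TotE was the only member to do so. In Ato GOF it rose 1.55-fold (log2 difference 0.63 ± 0.11, adjusted p = 0.015, limma), and in Gal4/7 x UASato 1.74-fold (0.80 ± 0.13, adjusted p = 0.0069). In atoGal4 x UASato it differed by 0.45 ± 0.12 (adjusted p = 0.30), and the 2 crosses were not shown to differ (0.35 ± 0.12, adjusted p = 0.25). Against only the parent stocks of the crosses, TotE was no longer called in Ato GOF (adjusted p = 0.065), nor without the Gal4/7 stock (adjusted p = 0.052), and in Gal4/7 x UASato it was lost against the Gal4/7 and UASato stocks alone (adjusted p = 0.099) and without that cross's replicate 2 (adjusted p = 0.068).

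In Ato LOF TotE went the other way, at 4.22, 4.58 and 4.44, with a difference of -0.35 ± 0.13 that did not pass (adjusted p = 0.098, limma). TotC did pass there. It read 5.48, 4.23 and 4.79 in Ato LOF, against 3.28, 3.42 and 3.87 as the lowest, median and highest control, so that no array overlapped. It rose 2.57-fold (1.36 ± 0.21, adjusted p = 0.0019) and passed with each array left out. All but the first of these values lie below 5.42, the median of all values. Against the CantonS arrays alone TotC was not called (adjusted p = 0.13), a comparison of 3 arrays with 2. TotC read 4.04, 4.32 and 3.62 in Sens GOF (0.52 ± 0.15, adjusted p = 0.078).

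TotF was called among the 8 lines (adjusted p = 0.044, limma), with line means only 0.52 apart, and the call held in 6 of 20 fits with an array left out. It read 3.99, 3.87 and 4.15 in Sens GOF, against 4.60 and 4.45 in UASato at the top. TotB and TotZ did not move, with whole ranges of 0.65 and 0.47. Ato LOF is the line that had been heat-shocked on several days, and a rise of a Turandot with the mutation and with that treatment cannot be told apart in this design. Of 11 heat shock genes on the list 5 were measured. In Ato LOF 1 of these was called, against 10.1% of all genes called lower. It was Hsp27, lower by 0.53 on the log2 scale (adjusted p = 0.0065, limma). Hsp68 read 6.80 to 12.66 in the controls and 7.90, 9.41 and 10.18 in Ato LOF. This count does not show whether the treatment had an effect.

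IM33 had the largest difference of all 33 genes. IM33 is a small peptide, named as a molecule that appears in the hemolymph after infection. It read 12.66, 12.47 and 12.53 in Ato LOF, against 5.41, 7.46 and 11.07 as the lowest, median and highest control. The 3 mutant arrays span 0.19 and lie above every control array, while the controls spread over 5.66 units. The difference was 27.2-fold (log2 4.77 ± 1.17, adjusted p = 0.021, limma). It was not called when an Ato LOF array was left out, with adjusted p up to 0.082. It was called against CantonS alone (adjusted p = 0.00074), the line with the lowest mean of IM33 (5.95 and 5.41).

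Outside Ato LOF, IM33 differed within lines as much as between them. It read 10.24, 5.74 and 7.57 in Gal4/7 x UASato, 6.94, 6.87 and 5.72 in atoGal4 x UASato, and 10.44, 10.52 and 8.10 in Sens GOF. The high control arrays were Gal4/7 replicate 2 (11.01) and UASato replicate 2 (11.07), whose partner arrays read 7.54 and 7.72. The summed level of the 4 measured fat body markers (Lsp2, Fbp1, Fbp2 and apolpp) was 15.84 to 16.19 in Ato LOF, against 14.20 to 15.98 in the controls. None of these 4 was called in Ato LOF, and their median log2 difference was 1.14. On UASato replicate 2, where IM33 was high, their summed level was 14.62, against 15.98 on replicate 1. On Gal4/7 replicates 2 and 1 it was 15.82 and 15.81. The part of the fat body markers in the IM33 result was not tested. In such whole-tissue RNA, fewer cells of a type and less RNA per cell cannot be told apart.

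Drsl2, another drosomycin-like gene, read 4.43, 6.11 and 5.07 in Ato LOF, against 3.72, 3.84 and 4.61 as the lowest, median and highest control. It was 2.33-fold higher (log2 difference 1.22 ± 0.31, adjusted p = 0.024, limma). The first mutant array lay among the controls, and without Ato LOF replicate 2 or 3 the call was lost, with adjusted p up to 0.11. Drsl2 read 4.82, 4.82 and 4.08 in Sens GOF, against the same controls. Drsl1, Drsl3, Drsl4 and Drsl6 stayed within 0.45 to 0.54 log2 units over all 20 arrays. These genes are close paralogs, so that probes of a member may bind transcripts of another.

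Among the classical inducible peptides, metchnikowin and diptericin B differed more between replicate arrays than between lines. Metchnikowin (Mtk) read 5.13, 3.96 and 4.26 in Gal4/7 x UASato and 5.67, 8.89 and 4.89 in atoGal4 x UASato. The Sens GOF arrays read 9.10, 8.97 and 5.32, and the Ato LOF arrays 9.43, 7.37 and 4.42. In the control stocks it read 8.63 and 4.27 in Gal4/7, 6.15 and 5.08 in atoGal4, 9.95 and 5.13 in UASato, and 5.50 and 4.06 in CantonS. High and low arrays of Mtk thus occur in the same line, and no line is high throughout.

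Diptericin B (DptB) followed the same arrays. It read 6.81, 5.95 and 5.83 in Gal4/7 x UASato and 6.82, 8.75 and 6.67 in atoGal4 x UASato. The Sens GOF arrays read 10.21, 10.17 and 6.42, and the Ato LOF arrays 8.69, 6.96 and 6.70. The control arrays ran from 5.94 to 9.56, with UASato replicate 1 at the top. The amidase PGRP-SB1 had its high values in the same places, at 8.45 on Ato LOF replicate 1, 8.64 and 8.50 on Sens GOF replicates 1 and 2, 8.62 on atoGal4 x UASato replicate 2, 8.05 on Gal4/7 replicate 1 and 8.74 on UASato replicate 1.

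The 6 highest arrays were the same 6 for Mtk, DptB and PGRP-SB1. The sixth highest array read 8.63 for Mtk, 7.86 for DptB and 8.05 for PGRP-SB1, and the seventh 7.37, 7.24 and 7.34 for the same genes. They come from 5 lines, and 2 of them are the near-identical Sens GOF arrays. None of the 3 genes was called in any comparison with the controls (adjusted p from 0.28 to 0.97, limma), and none among the lines. In Sens GOF DptB had a log2 difference of 1.94 ± 0.91 (adjusted p = 0.28).

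Drosomycin (Drs), the antifungal peptide of the Toll pathway, shared only part of that pattern. It read 11.10, 11.18 and 6.47 in Sens GOF and 9.23 on atoGal4 x UASato replicate 2, but 5.79 on Ato LOF replicate 1, where Mtk and DptB were high. Its other perturbed arrays read 6.30, 5.15 and 5.49 in Gal4/7 x UASato, 6.01 and 5.59 in atoGal4 x UASato, and 6.39 and 5.90 in Ato LOF. The controls read 9.32 and 9.88 in Gal4/7, 8.67 and 6.19 in atoGal4, 10.17 and 8.24 in UASato, and 8.15 and 6.09 in CantonS. The Ato arrays other than atoGal4 x UASato replicate 2 were mostly below the controls, while that array was above 5 of the 8 controls, so the groups overlap.

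The difference of Drs was -2.69 ± 0.84 in Gal4/7 x UASato (adjusted p = 0.19, limma), -2.04 ± 0.76 in Ato GOF (adjusted p = 0.28) and -2.31 ± 0.83 in Ato LOF (adjusted p = 0.092). Against the Gal4/7 and UASato stocks alone, Drs was called lower in Gal4/7 x UASato. The summed fat body level in Gal4/7 x UASato was 15.97, 10.41 and 14.59 for replicates 1, 2 and 3, and Drs was lowest on replicate 2, where all 4 fat body markers were at their lowest of the 20 arrays. In Ato LOF, where Drs read 5.79, 6.39 and 5.90, the summed fat body level was 16.19, 15.95 and 15.84. The part of the fat body markers in the Drs values was not tested.

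**Figure D4:**
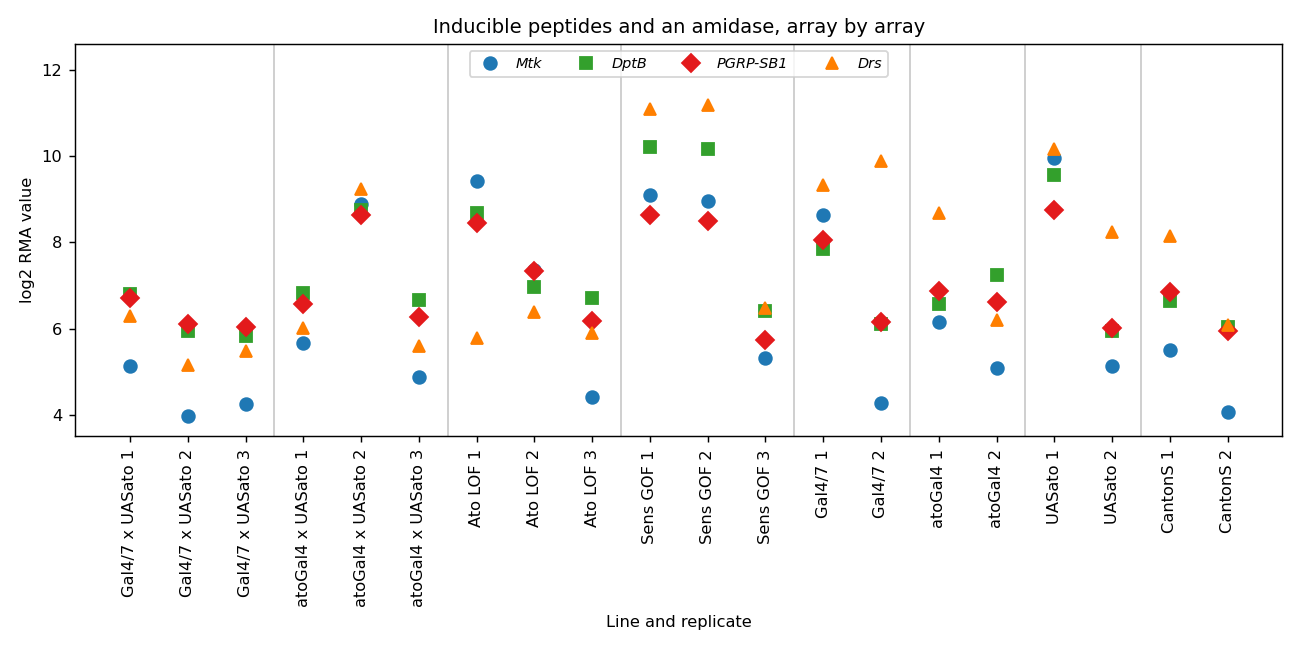
Log2 RMA values of Mtk, DptB, PGRP-SB1 and Drs on each of the 20 arrays, with lines separated by grey rules and control stocks on the right. Mtk, DptB and PGRP-SB1 share the same 6 highest arrays, from 5 lines, while Drs is also high on Gal4/7 replicate 2 and low on Ato LOF replicate 1.

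The other antibacterial peptides moved less across the arrays. Cecropin B (CecB) stood between 5.27 and 7.04, with its highest values on atoGal4 x UASato replicate 2 (7.04) and CantonS replicate 1 (6.52). Attacin D (AttD) stood between 3.54 and 5.44, highest on Gal4/7 x UASato replicate 3, and defensin (Def) between 5.27 and 5.94. None of the 3 was called.

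The bomanins, short peptides of the Toll response, were called in no comparison. BomT2 reached 6.28 on UASato replicate 1 and 5.17 and 5.30 on Sens GOF replicates 1 and 2, and stood between 3.10 and 4.37 elsewhere. BomS6 read 4.49, 4.55 and 3.07 in Sens GOF, against 2.92, 3.15 and 3.65 as the lowest, median and highest control (0.86 ± 0.28, adjusted p = 0.12, limma). The other 6 bomanins were between 3.16 and 5.12 on every array.

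A pair of amidases were high on single arrays. PGRP-SB2 read 12.07 on atoGal4 x UASato replicate 1 and 7.97 on Gal4/7 replicate 1, and 4.55 to 5.70 on the other 18. Its replicates in atoGal4 x UASato read 4.71 and 5.16, a range within the line of 7.37 log2 units. On that array the summed midgut level was 7.47 and the summed fat body level 14.96, and none of the 7 midgut and 4 fat body markers was at its highest there.

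PGRP-SC2, an amidase of the gut, read 10.14 on Gal4/7 replicate 2 and 6.69 to 7.66 on the other 19 arrays. On that array 6 of the 7 measured midgut markers were at their highest of the 20. Of these, the trypsin betaTry read 13.63, against 5.52 on replicate 1 of the same stock. The summed midgut level was 15.76 on Gal4/7 replicate 2 and 7.58 on replicate 1. Across the other lines it was 10.31 to 11.87 in Ato LOF, 12.38, 12.37 and 7.63 in Sens GOF, 12.39 on atoGal4 x UASato replicate 2, and 7.47 to 9.30 on the remaining arrays. The part of this tissue in the PGRP-SC2 values was not tested.

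Without Gal4/7 replicate 2, PGRP-SC2 was higher in Ato LOF, at 7.66, 7.05 and 7.43, by 0.45 ± 0.11 (adjusted p = 0.024, limma). With that array the difference was 0.05 ± 0.62 (adjusted p = 0.97). Of the other calls in Ato LOF without that array, IM33 (5.23 ± 0.99, adjusted p = 0.0072), TotC (1.35 ± 0.22, adjusted p = 0.0035) and Drsl2 (1.28 ± 0.31, adjusted p = 0.022) stood and PGRP-LA did not. Of the 33, 7 had a within-line range over 3 log2 units in some line (21.2%), against 4.16% of all genes.

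**Figure D5:**
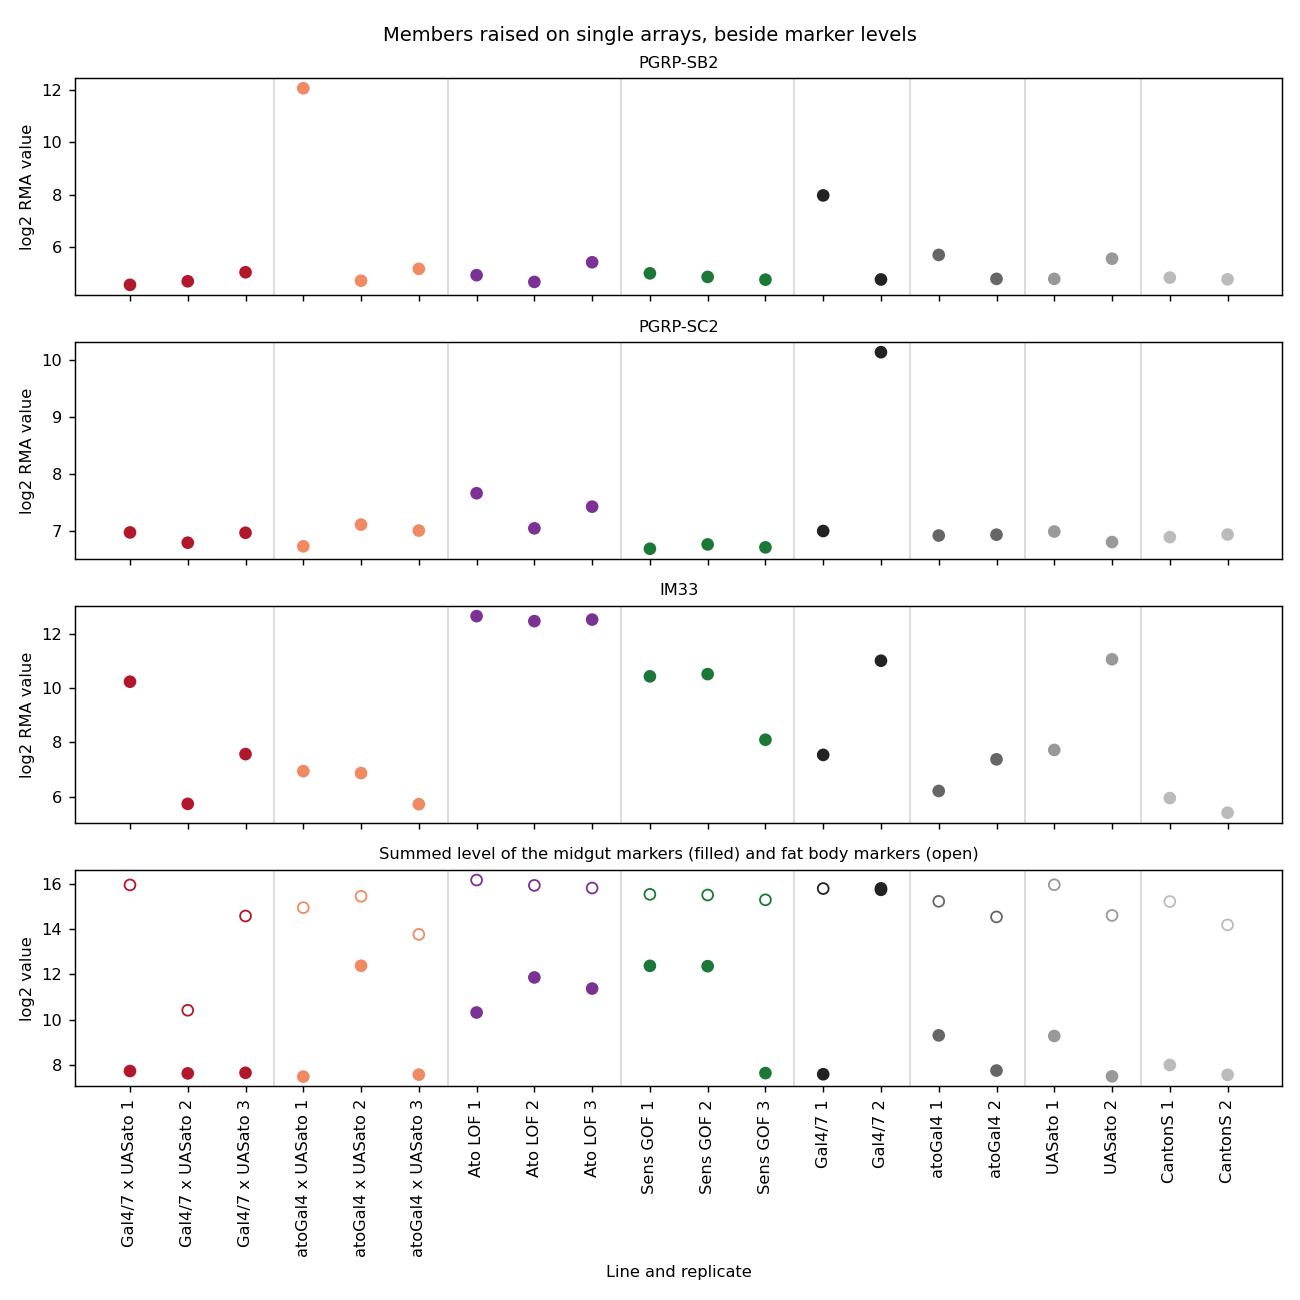
Log2 RMA values of PGRP-SB2, PGRP-SC2 and IM33 on each array, above the log2 summed levels of 7 midgut markers (filled) and 4 fat body markers (open); colours mark lines and the control stocks are on the right. PGRP-SB2 is high on atoGal4 x UASato replicate 1 (12.07), and PGRP-SC2 is high on Gal4/7 replicate 2 (10.14), where the summed midgut level is 15.76.

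Over the 8 lines, 7 of the 33 genes passed the F test (Drsl5, IM33, PGRP-LA, PGRP-LE, TotC, TotE and TotF), which is 21.2%, against 25.4% of all genes. PGRP-LA passed in 5 of 20 fits with an array left out, and Drsl5, IM33, PGRP-LE, TotC and TotE in all 20. The share of the sum of squares that lay between lines was 99.0% for PGRP-LE, 91.8% for TotE, 82.2% for TotC and 80.8% for Drsl5. It was 19.6% for PGRP-SB1, 28.7% for PGRP-SB2 and 33.7% for Mtk. The genes thus fall along a range, with PGRP-LE the most fixed to its line and PGRP-SB1 among the least. Genes that hardly moved had shares as low, at 19.0% for TotZ and 24.5% for BomT3, and Drs had 59.9%. A low share is therefore not particular to the inducible genes. The share to be found without any line difference was not computed.

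The pathways upstream were measured as lists. Over all genes 6.34% were called higher and 10.1% lower in Ato LOF, and 1.7% and 2.21% in Sens GOF. In Gal4/7 x UASato 1.96% were called higher and 2.49% in either direction. In atoGal4 x UASato 0.0835% were called higher and 0.00835% lower. Of 14 measured Toll pathway genes, 3 rose in Ato LOF: SPE, the protease that cleaves the ligand Spätzle (1.99 ± 0.34, adjusted p = 0.0033, limma), psh, a protease above it (1.42 ± 0.34, adjusted p = 0.019), and Dif, an NF-kB factor of the pathway (0.51 ± 0.11, adjusted p = 0.014). None of the 14 fell there, and their median was -0.01, beside -0.02 over all genes. The summed fat body level in Ato LOF was 15.84 to 16.19, and its part in these values was not tested. In Gal4/7 x UASato the adaptor Myd88 fell by 0.32 ± 0.06 (adjusted p = 0.023), and in Sens GOF the receptor Tl fell by 0.44 ± 0.09 (adjusted p = 0.023). The other Toll pathway genes did not pass in these comparisons.

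Of 15 measured Imd pathway genes, none rose in any comparison. In Ato LOF 2 fell, against 10.1% of all genes called lower. They were the deubiquitinase CYLD, by 0.21 ± 0.06 (adjusted p = 0.044, limma), and the nuclear factor akirin, by 0.23 ± 0.06 (adjusted p = 0.022). In Sens GOF akirin fell by 0.26 ± 0.06 (adjusted p = 0.041). Dredd, the caspase of the pathway, was the only gene of this list called among the control stocks (adjusted p = 0.0039), with means of 9.05 in Gal4/7, 9.79 in atoGal4, 9.15 in UASato and 9.29 in CantonS. Of 8 JAK/STAT genes, 1 passed, the repressor ken, which fell by 0.81 ± 0.08 in atoGal4 x UASato (adjusted p = 0.0079). Of 11 JNK and damage genes, 2 fell in Ato LOF (grnd and Jra) and 1 in Sens GOF (Gadd45), against 10.1% and 2.21% of all genes. None of the 11 rose. On the stress kinase list, with 5 genes, Atf-2 was called, which is a transcription factor and not a kinase. It rose in Gal4/7 x UASato (0.93 ± 0.17, adjusted p = 0.014) and fell in Ato LOF by 1.20 ± 0.22 (adjusted p = 0.0054).

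Hemocytes, the blood cells that carry many immune transcripts, were marked by 9 measured genes. In Gal4/7 x UASato 3 of them rose, against 1.96% of all genes called higher. These were Hml, NimC1 and eater, with log2 differences of 1.57, 1.58 and 1.46. The summed level was 12.91 to 13.91 in that cross, against 10.96 to 13.07 in the controls. The highest control levels, 12.61 and 13.07, were those of the Gal4/7 stock. In Ato LOF NimC1 fell by 2.00 ± 0.24 (adjusted p = 0.00056, limma), at a summed level of 11.49 to 12.20. The prophenoloxidases PPO1 and PPO2, of the crystal cells, were called among the control stocks (adjusted p = 0.014 and 0.019). PPO1 averaged 10.39 in Gal4/7, 7.63 in atoGal4, 8.80 in UASato and 6.14 in CantonS. PGRP-LA and TotE were called in the same Gal4/7 cross, and the part of the hemocyte transcripts in those values was not tested. Of the 22 other humoral immunity genes, in which IM33 is counted again, 3 rose in Ato LOF (Hayan, NimB2 and IM33) and NimA fell. Over all genes 6.34% were called higher there and 10.1% lower.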

How the data were processed

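The deposited table held log2 RMA values of 20 Affymetrix Drosophila 2.0 arrays, which per the labels the authors background-corrected, normalized and summarised per probe set; the RMA version is not given in the sources used here. No detection calls or counts were used, so depth does not apply and the number of arrays limits the precision. The study's methods name the arrays of a line as biological repeats. Of the probe sets, 183 Affymetrix controls were left out and 18769 tested; 13647 name 1 gene, 402 several and 4720 none. The brightest single-gene probe set stood for a gene. Genes were compared with limma 3.58.1 in R 4.3.3 (lmFit, eBayes, Benjamini-Hochberg over all 18769 probe sets, called at adjusted p under 0.05), each perturbation against the 8 controls, and moderated F tests over the control stocks and over all 8 lines in a fit of 20 arrays. The stock contrasts and the difference between crosses come from that fit. The procedure was tested on simulated data. Per-array values are given for genes called in any test and for those with the widest line means, up to 16, and others that were singled out after their values were seen (such as PGRP-SC2 and BomS6) are given as well. The 33 genes and all gene lists, 16 with 127 of 162 genes measured, were chosen with earlier results of these data known. Summed marker levels are the log2 of summed linear values. The second control arrays are numbered by their titles. Alternatives covered filtering, quantile normalization, moderation, array weights, the fitted arrays, the controls and single arrays left out.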

Additional observations from a re-analysis of the deposited data

Results flagged for a closer look

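Of 66 tests for an array far from the rest of its group (33 genes in the 6 Ato GOF and the 8 control arrays), 16 were positive, 8 in each group. The nominal rate of about 1 in 20 is for independent genes and arrays of a single line. These genes share high arrays and each group pools several lines, so the count cannot be set against that rate. In Ato GOF atoGal4 x UASato replicate 2 was far above the rest for BomS2 (4.23), DptB (8.75), Drs (9.23), Mtk (8.89) and PGRP-SB1 (8.62). The other Ato GOF arrays that stood apart were atoGal4 x UASato replicate 1 for PGRP-SB2 (12.07), Gal4/7 x UASato replicate 3 for AttD (5.44) and Gal4/7 x UASato replicate 1 for TotF (4.53).

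Among the controls UASato replicate 1 was far above the rest for BomS5 (4.57), BomT2 (6.28) and TotC (3.87), and CantonS replicate 1 for CecB (6.52) and TotB (3.86). Single arrays also stood apart for PGRP-SB2 (7.97 on Gal4/7 replicate 1), PGRP-SC2 (10.14 on Gal4/7 replicate 2) and BomBc2 (4.78 on atoGal4 replicate 1).

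PGRP-LE differed between the Ato GOF crosses, with a log2 difference of -1.07 for Gal4/7 x UASato minus atoGal4 x UASato. The probe set shared by PGRP-SC1a and PGRP-SC1b, which is in no comparison, read 7.14 on Ato LOF replicate 1, against at most 5.43 in the controls.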

How the results depend on the processing

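Counts below are of the 33 genes called, mostly with the share of all genes called under the same setting in parentheses. Some counts carry no share, as in the fits with an array left out or with the replicate block. Those counts cannot be told apart from a change in calls over all genes. Among the 5 comparisons with the controls, leaving out dim probe sets gave PGRP-LA alone in Ato GOF (1; 2.48%) and in Gal4/7 x UASato (1; 3.23%), and IM33 and PGRP-LA in Ato LOF (2; 25.8%), since TotE, TotC and Drsl2 are then not tested. Array weights gave 10 in Sens GOF (26.6%), DptB, Drs and PGRP-SB1 among them, and 13 over the 8 lines (40.8%); the cause was not tested. All 20 arrays in 1 fit gave 2 in atoGal4 x UASato (0.81%), 7 in Ato LOF (25.2%) and 4 in Sens GOF (10.3%). Line as a random block gave 1 in Ato GOF (0.659%) and 1 in Sens GOF (2.38%). The nearest control stocks gave 0 in Ato GOF (0.542%), 2 in Gal4/7 x UASato (Drs and PGRP-LA), 1 in Ato LOF (IM33; 3.4%) and 0 in Sens GOF (0.559%), with fewer control arrays. Alternatives added after seeing the data were controls other than the Gal4/7 stock, with 0 in Ato GOF (0.559%) and 1 in Sens GOF (2.21%), and Sens GOF arrays 1 and 2 averaged, with 0 in Sens GOF (0.601%). Among the control stocks, PGRP-LE alone (1 gene) passed with a trended, robust prior (3.61%) and with the 8 control arrays only (0.818%). With an array left out the counts were 1 to 2 in Ato GOF, 1 to 2 in Gal4/7 x UASato, 1 to 5 in Ato LOF, 0 to 3 in Sens GOF, 1 to 2 among the control stocks and 5 to 10 over the 8 lines.

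The deviations of same-numbered arrays of different lines from their line means correlated at -0.40 to 0.53 (median 0.09, 27 of 62 pairs above 0.1). Differently numbered arrays were not set beside them, so these values do not decide whether the numbers pair the samples. With the replicate block 1 gene (TotE) was called in Ato GOF, 4 in Ato LOF, where IM33 had an adjusted p of 0.054, and 9 over the 8 lines. Of 440 refits of single called genes, 343 stayed past the threshold and 97 did not. Among the refits against the controls 0 turned direction, while refits of the F tests have no direction that could turn. Quantile normalization and the 1.5-fold limit moved no count by over 1.5 times.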
